A study of Mus musculus with 4 samples.

Results

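Prolactin and growth hormone signal through the same route. The hormone clusters its receptor (Prlr or Ghr), the receptor-bound kinase JAK2 is activated, and JAK2 phosphorylates the latent transcription factors STAT5A and STAT5B, which pair, enter the nucleus and bind DNA elements of the form TTCNNNGAA. STAT5 then switches on inhibitors of its own route, CISH and the suppressors of cytokine signalling SOCS1, SOCS2 and SOCS3, which dock on receptors or kinases. In the mammary gland the prolactin branch drives the growth of milk-secreting alveoli, while the growth hormone branch acts largely through the stroma. The genes described here are Prlr, Ghr, Jak2, Stat5a, Stat5b, Cish, Socs1, Socs2 and Socs3, chosen by gene symbol and without use of the measured values.

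Mammary tissue of mice labelled STAT5 WT (2 arrays) or STAT5 KO (2 arrays) was profiled on Affymetrix arrays, each from its own mouse per the series' design text. Both genotypes were sampled at 6 days, and no event is named from which these days run. The labels give no strain, age, allele, Cre driver or deleted segment, and do not say whether Stat5a, Stat5b or both were removed or in which cells, whereas the title of the series names STAT5A alone. Of 45037 probe sets, 20 carried exactly 1 of the 9 symbols, and these stood for 8 of the 9 genes. No probe set was named Prlr in the annotation used here, so the prolactin receptor was not analysed here. Of the 20 probe sets, 18 were bright enough to be tested, with a mean at or above 7.15 on the log2(signal + 16) scale. A suffix of a_at marks a probe set shared by transcripts of 1 gene, s_at or x_at one whose probes may match other sequences too. Probe sets of a gene share the same RNA and are not replicates.

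The promoters of Stat5a and Stat5b are shown because the probe sets of these genes lay lower together, and that of Socs3 because it alone held the STAT5 element among the 7 measured genes with a promoter window. Each is the 250 bases before a RefSeq transcript start (GRCm38.p6), read 5′ to 3′ on the gene's strand, with any TTCNNNGAA in capitals.

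Stat5a, chr11:100859406-100859655, plus strand: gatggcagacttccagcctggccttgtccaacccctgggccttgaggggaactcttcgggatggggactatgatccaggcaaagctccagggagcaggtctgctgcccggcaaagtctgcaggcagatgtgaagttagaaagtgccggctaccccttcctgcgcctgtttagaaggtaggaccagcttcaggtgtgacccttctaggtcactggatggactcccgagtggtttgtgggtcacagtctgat

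Stat5b, chr11:100850582-100850831, minus strand: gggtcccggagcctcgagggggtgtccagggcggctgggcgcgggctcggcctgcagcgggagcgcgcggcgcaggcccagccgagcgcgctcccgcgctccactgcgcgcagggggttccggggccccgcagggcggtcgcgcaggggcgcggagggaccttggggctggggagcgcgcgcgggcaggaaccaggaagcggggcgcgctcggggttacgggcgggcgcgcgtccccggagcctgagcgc

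Socs3, chr11:117969367-117969616, minus strand: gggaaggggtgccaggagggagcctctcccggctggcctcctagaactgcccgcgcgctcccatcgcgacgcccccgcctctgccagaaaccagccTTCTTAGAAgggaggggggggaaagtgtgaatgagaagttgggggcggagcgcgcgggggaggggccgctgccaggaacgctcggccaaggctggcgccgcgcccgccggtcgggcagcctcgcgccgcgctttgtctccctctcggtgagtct

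The RefSeq table held 13 such windows for 8 of the 9 genes, with Socs2 absent. TTCNNNGAA, which reads the same in form on both strands, was found in 1 window of Socs3 and in 1 of the 3 windows of Prlr. The Socs3 match, TTCTTAGAA, began 154 bases before the start. Among all 32851 promoter windows of this length 7.02% held TTCNNNGAA. The Stat5b window was far richer in G and C (82.0%, with 40 CpG) than that of Stat5a (57.6%, with 5 CpG), against a median of 52.4% over all windows. The other RefSeq start of Stat5a had 68.0% and 21 CpG, and that of Stat5b 46.4% and 5 CpG.

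The arrays carried a common scaling, with trimmed mean signals of 500 each and medians of 121 to 131. Epithelial RNA differed between the KO arrays. The summed signal of 23 general epithelial markers was 58321 and 61165 in WT, 38970 in KO replicate 1 and 62475 in KO replicate 2. Of these markers, 12 lay lower and 4 higher in both KO mice than in both WT mice, against 27.5% and 26.2% of all tested genes. The other 7 overlapped, and no marker had a signal near 0. The sum of 8 adipocyte markers ran from 98472 to 108200 over the 4 arrays, with 3 markers higher on both KO arrays, near the same 26.2%, and 5 overlapping. For 10 skeletal muscle markers the sum was 1475 and 445 on the WT arrays against 10026 and 5993 on the KO arrays. B and T cell markers, 7 in all, summed to 2449 and 3073 on the WT arrays and to 1489 and 1761 on the KO arrays. Ptprc, carried by all leukocytes, made up most of these sums at 1072 to 1904, Cd3e ran from 28.1 to 404, and Cd3d stayed at 58.0 or less. The part of these cell types in the differences below was not tested.

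No core gene of the pathway passed the test between genotypes. All 4 probe sets of Stat5a and Stat5b lay below WT on both KO arrays, both of Jak2 lay above, and those of Ghr, Socs2 and Socs3 were mixed. Of the 18 probe sets tested, 0 passed an adjusted p of 0.05 in limma, where 2% of all tested probe sets did. An unadjusted p under 0.05 was reached by 7 of the 18, namely the 4 of Stat5a and Stat5b, both of Jak2 and 1 of Socs2, against a background of 19.6%. On the KO arrays 4 of the 18 lay below both WT arrays, against a background of 28%, and 5 lay above both, against 23.9%. Taken by brightest probe set, the 7 tested genes had a median log2 difference of -0.045, and all 11360 tested genes one of -0.0099.

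**Figure D1:**
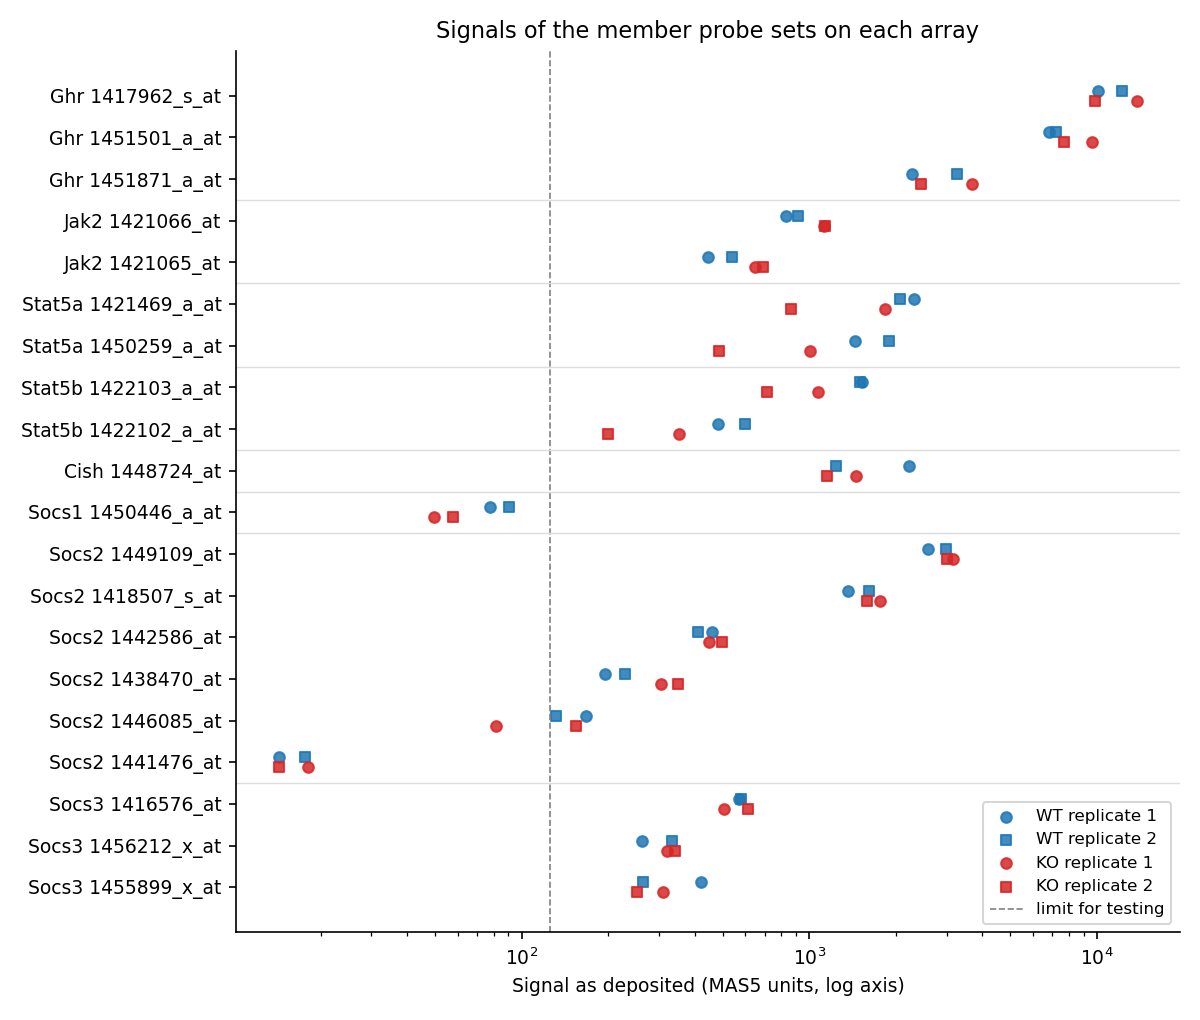
Deposited signal (MAS5 units, log axis) of each of the 20 probe sets on the 4 arrays, with WT in blue and KO in red, circles for replicate 1 and squares for replicate 2, and a dashed line at the limit for testing. The red and blue points separate for Jak2, Stat5a and Stat5b and mix for most probe sets of Ghr, Socs2 and Socs3.

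**Figure D2:**
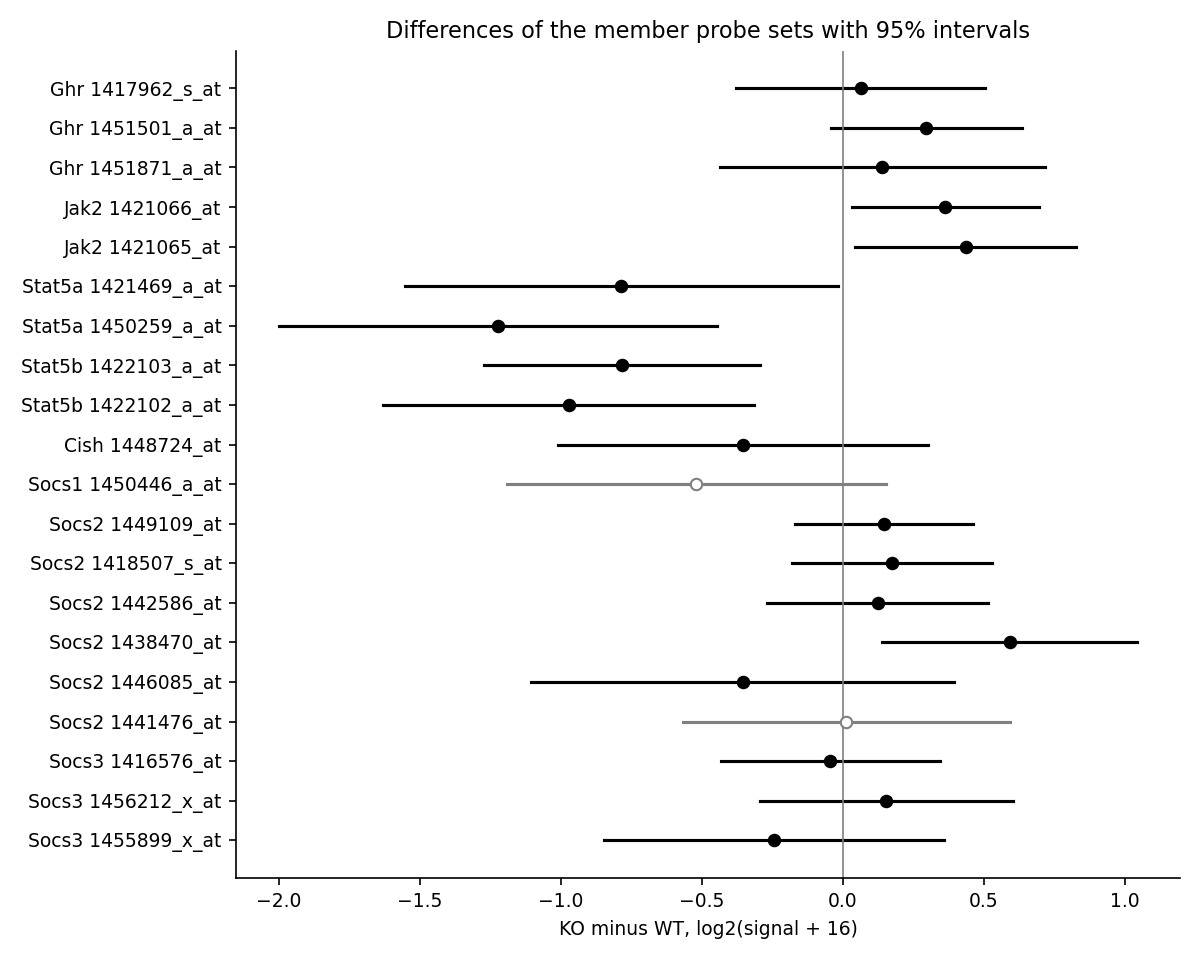
KO minus WT difference on the log2(signal + 16) scale for each probe set, with 95% intervals from limma on 2 arrays per genotype. Open grey points mark the 2 probe sets under the limit, with intervals from the fit with no filter, and the 4 intervals of Stat5a and Stat5b lie below 0.

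Stat5a encodes the STAT5 form that dominates in mammary epithelium. Its probe set 1421469_a_at gave 2307 and 2061 in WT, 1836 in KO replicate 1 and 861 in KO replicate 2. Probe set 1450259_a_at gave 1444 and 1889 in WT, 1003 in KO replicate 1 and 485 in KO replicate 2. Neither probe set overlapped between genotypes, and in each the signal on KO replicate 2 was under that on KO replicate 1. The remaining signal was 84.1% and 60.2% of the WT mean on KO replicate 1, and 39.4% and 29.1% on KO replicate 2. The log2 differences were -0.79 ± 0.32 (SE, n = 2 per genotype; limma adjusted p = 0.246) and -1.22 ± 0.33 (adjusted p = 0.106).

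Stat5b, the closely related form that serves growth hormone in other tissues, showed the same order of arrays. Its probe set 1422103_a_at gave 1522 and 1506 in WT, then 1069 and 712 in KO replicates 1 and 2. Its other probe set, 1422102_a_at, gave 483 and 597 in WT, then 353 and 199 in KO replicates 1 and 2. Again the genotypes did not overlap and KO replicate 2 was the lower. The KO signals were 70.6% and 65.4% of the WT mean on replicate 1 and 47.0% and 36.9% on replicate 2. The log2 differences were -0.78 ± 0.21 (SE; limma adjusted p = 0.102) and -0.97 ± 0.28 (adjusted p = 0.121).

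The KO arrays differed from each other in Stat5 signal more than most genes did. The gap between them was 1.08 and 1.02 on the log2 scale for the Stat5a probe sets, larger than for 98.5% and 98.2% of all tested probe sets. For Stat5b it was 0.58 and 0.78, larger than for 90.8% and 95.8%. The median over the 4 probe sets was -0.54 on KO replicate 1 and -1.34 on KO replicate 2, each against the WT mean. Epithelial markers ran the other way, with a median of -0.88 on KO replicate 1 and -0.14 on KO replicate 2. Their mean was -0.725 on KO replicate 1 and -0.0275 on KO replicate 2. On KO replicate 1 single markers ran from -2.26 (Ehf) to 0.78 (Krt7), so this mean is a rough measure. Set against the mean log2 value of these markers on the same array, the brighter Stat5a probe set was 0.48 above its WT mean on KO replicate 1. On KO replicate 2 that probe set was at -1.3 against its WT mean. The other 3 probe sets stood at 0.014 to 0.23 on KO replicate 1 and at -1.71 to -1.04 on KO replicate 2. In whole tissue, fewer cells of a type and less RNA per cell cannot be told apart.

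**Figure D3:**
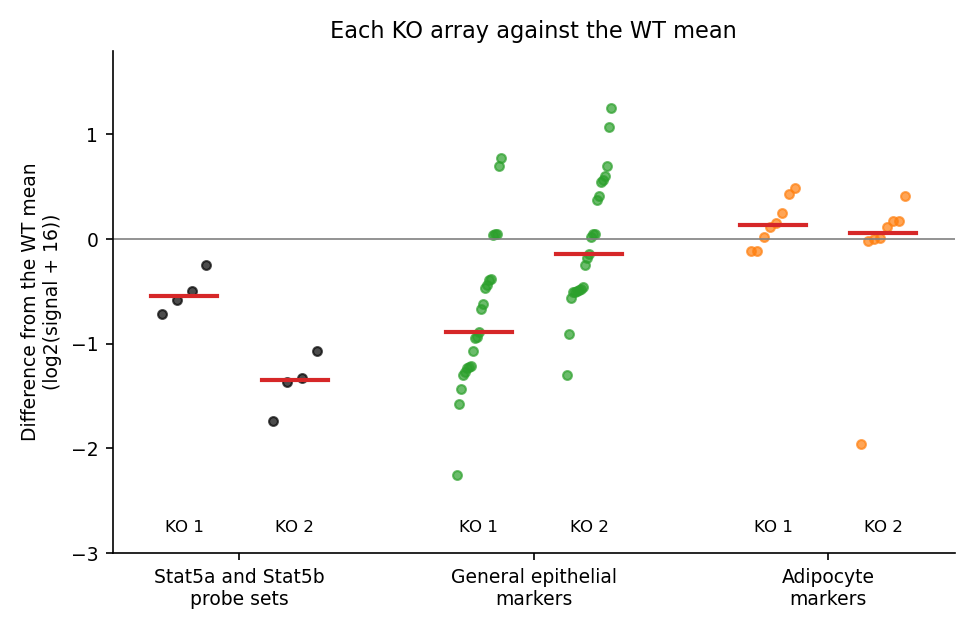
Difference of each KO array from the WT mean on the log2(signal + 16) scale for the 4 Stat5a and Stat5b probe sets, 23 general epithelial markers and 8 adipocyte markers, with red bars at the medians. Stat5 is the lower on KO replicate 2 (-1.34 against -0.54), and the epithelial markers are the lower on KO replicate 1 (-0.88 against -0.14).

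Whether Stat5 passed the test rested on KO replicate 1. Without that array all 4 probe sets passed, where 2.82% of all tested probe sets passed and 1.55% passed with a lower KO signal. The differences there were -1.33 and -1.74 for Stat5a (limma adjusted p = 0.0115 and 0.00852) and -1.07 and -1.36 for Stat5b (adjusted p = 0.0227 and 0.0251), with the lone KO array assumed to vary as WT did. Without KO replicate 2 they were -0.25 and -0.71 for Stat5a (adjusted p = 0.490 and 0.102) and -0.50 and -0.58 for Stat5b (adjusted p = 0.159 and 0.189). In that setting 4.53% of all tested probe sets passed, and 0 of the 17 tested here. The count was also 0 without WT replicate 1 (background 0.697%) and without WT replicate 2 (background 0.298%).

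The genes around the STAT5 pair gave a view of the locus. In the RefSeq gene order (GRCm38.p6) Stat5b and Stat5a lie side by side on chromosome 11 on opposite strands, with Ghdc beyond Stat5b and Stat3 beyond Stat5a. These neighbours were picked by position after the STAT5 values had been seen. Ghdc gave 413 and 399 in WT, then 408 and 441 in KO replicates 1 and 2, a difference of 0.062 (limma adjusted p = 0.869). Stat3, which drives the loss of alveoli after weaning, gave 3052 and 3431 in WT, then 2692 and 2547 in KO replicates 1 and 2, a difference of -0.30 (adjusted p = 0.261). Cavin1, next after Stat3, differed by 0.36 (adjusted p = 0.239). None of these 3 passed, and Ghdc overlapped between genotypes. Stat3 lay lower on both KO arrays, as did 27.5% of all tested genes, and Cavin1 higher, as did 26.2%. Further out, Atp6v0a1 (0.27) and Naglu (0.36) also lay higher on both without passing. On the side of Ghdc, Rab5c (-0.018) overlapped and Hcrt was too dim to be tested.

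Jak2, the kinase that both receptors carry, was higher in each KO array than in each WT array with both of its probe sets. Probe set 1421066_at gave 832 and 913 in WT, then 1122 and 1130 in KO replicates 1 and 2. Probe set 1421065_at gave 446 and 538 in WT, then 648 and 689 in KO replicates 1 and 2. The KO arrays lay close together, unlike for Stat5. The differences were 0.36 ± 0.14 (SE; limma adjusted p = 0.221) and 0.43 ± 0.16 (adjusted p = 0.215), with 95% intervals of 0.030 to 0.70 and 0.042 to 0.83. With any 1 array left out they ran from 0.30 to 0.57.

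Ghr, the growth hormone receptor gene, which also yields a soluble binding protein, did not separate the genotypes with 2 of its 3 probe sets. Probe set 1417962_s_at gave 10112 and 12249 in WT, then 13764 and 9815 in KO replicates 1 and 2. Probe set 1451871_a_at gave 2284 and 3253 in WT, then 3685 and 2450 in KO replicates 1 and 2. In both, KO replicate 1 was the highest of the 4 arrays and KO replicate 2 lay under WT replicate 2. Only 1451501_a_at did not overlap, at 6821 and 7211 in WT, then 9637 and 7687 in KO replicates 1 and 2. The log2 differences of 1417962_s_at, 1451501_a_at and 1451871_a_at were 0.063, 0.29 and 0.14 (limma adjusted p = 0.888, 0.314 and 0.804). The widest of their 95% intervals, that of 1451871_a_at, ran from -0.44 to 0.72. Without KO replicate 1 the differences of 1417962_s_at and 1451871_a_at turned to -0.18 and -0.15.

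Cish is a classical immediate target of STAT5 and blocks its docking on receptors. Its only probe set, 1448724_at, gave 2224 and 1238 in WT, then 1449 and 1155 in KO replicates 1 and 2. WT replicate 1 stood apart, and WT replicate 2 lay between the KO arrays. The gap between the WT arrays, 0.84 on the log2 scale, was larger than for 97.9% of tested probe sets. The difference between genotypes was -0.36 ± 0.28 (SE; limma adjusted p = 0.537; 95% interval -1.01 to 0.30). It was 0.063 without WT replicate 1 and -0.77 without WT replicate 2 (adjusted p = 0.251).

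Socs2, the main brake on growth hormone action, had 6 probe sets. The brightest, 1449109_at, gave 2590 and 2994 in WT, then 3149 and 3013 in KO replicates 1 and 2. Both KO arrays lay above both WT arrays by a margin smaller than the WT gap, and the difference was 0.14 ± 0.13 (SE; limma adjusted p = 0.607; 95% interval -0.17 to 0.46). Probe set 1438470_at, which is dimmer, gave 195 and 230 in WT, then 306 and 350 in KO replicates 1 and 2, a difference of 0.59 ± 0.19 (adjusted p = 0.156). The genotypes overlapped in the other 4, with differences of 0.17 for 1418507_s_at, 0.12 for 1442586_at, -0.36 for 1446085_at and 0.012 for 1441476_at. The last gave 14.4 to 18.1 on the 4 arrays and was not tested.

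Socs1, an inhibitor of JAK kinases best known in interferon signalling, was dim. Its probe set 1450446_a_at gave 77.7 and 90.6 in WT, then 49.7 and 57.9 in KO replicates 1 and 2, under the limit for testing. Both KO arrays were the lower, as for 25.4% of all probe sets. In the fit with no filter, where 0.0844% of probe sets passed, the difference was -0.52 ± 0.27 (SE; limma adjusted p = 0.459).

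Socs3, which restrains STAT3 and gp130 receptors, stayed within the spread between arrays. Probe set 1416576_at gave 570 and 579 in WT, then 507 and 610 in KO replicates 1 and 2, so the KO arrays enclosed the WT pair. Its difference was -0.045 ± 0.16 (SE; limma adjusted p = 0.912; 95% interval -0.43 to 0.34). The other probe sets also overlapped, with differences of 0.15 for 1456212_x_at and -0.25 for 1455899_x_at.

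**Figure D4:**
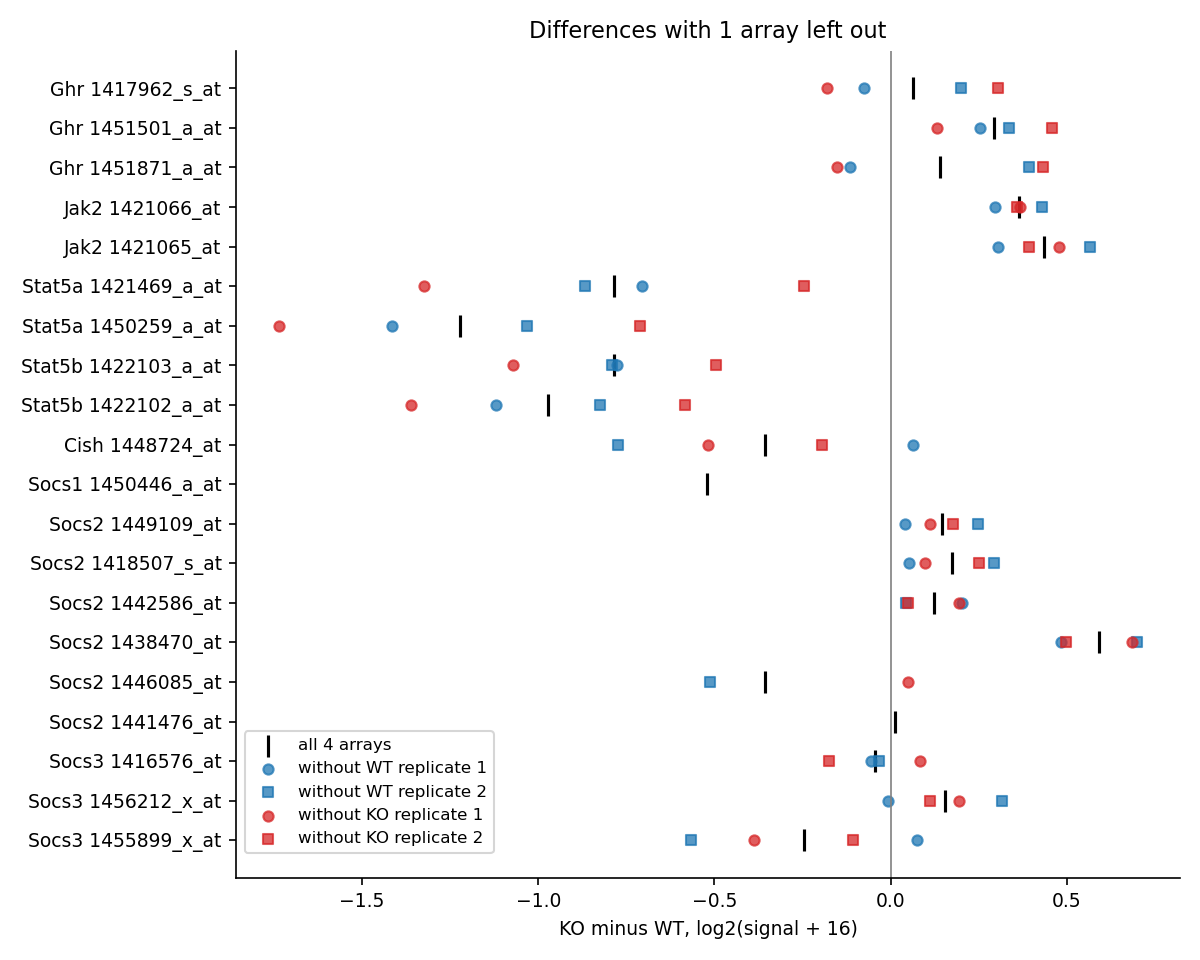
KO minus WT difference on the log2(signal + 16) scale with all 4 arrays (black bars) and with each array left out (blue for a WT array, red for a KO array). The Stat5a and Stat5b points stay below 0 and the Jak2 points above it, while points of Ghr, Cish, Socs2 and Socs3 fall on both sides.

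Among other genes of cytokine signalling, 2 receptor genes rose in KO, and neither passed when probe sets of a gene were averaged. Of 44 tested genes, 2 rose, 0 fell and 42 did not pass, against 2.57% passing among all tested genes. Their median difference was 0.066. Osmr, the oncostatin M receptor, gave 1149 and 1040 in WT, then 2206 and 1874 in KO replicates 1 and 2, a difference of 0.89 ± 0.15 (SE; limma adjusted p = 0.0425). Ifngr1, the ligand-binding chain of the interferon gamma receptor, gave 1691 and 1763 in WT, then 2750 and 3293 in KO replicates 1 and 2, a difference of 0.80 ± 0.14 (adjusted p = 0.0484). Each sat close to the threshold, and neither call held when a WT array was dropped, when dim probe sets were kept, when the variance trend was removed or when arrays were centred on epithelial markers. Under that centring the differences were larger, 1.26 and 1.17, with wider SEs of 0.47 and 0.48, and without filter or trend they were unchanged. That of Osmr was also lost without KO replicate 1, and that of Ifngr1 without KO replicate 2, after quantile normalization and with the 75th percentile filter. The other tested probe set of Osmr gave 0.63 (adjusted p = 0.0922), and the third, dim one -0.22.

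Among the 12 tested ligands and receptors the median was 0.41, and 7 lay higher on both KO arrays, against 26.2% of all tested genes. Lifr and Il6st were among them. Lifr, the leukaemia inhibitory factor receptor, gave 2486 and 2240 in WT, then 3567 and 3217 in KO replicates 1 and 2, a difference of 0.52 (limma adjusted p = 0.0969). Il6st, the shared signalling chain gp130, gave 2775 and 2854 in WT, then 4319 and 3591 in KO replicates 1 and 2, a difference of 0.48 (adjusted p = 0.124). Epor, the erythropoietin receptor, another JAK2-bound receptor, differed by 0.67 (adjusted p = 0.144). Of 6 macrophage markers 0 passed in limma, 3 lay higher on both KO arrays and 3 overlapped, with a median of 0.32 and summed signals of 14713 and 12891 on the WT arrays against 17931 and 17128 on the KO arrays. Endothelial markers had a median of 0.092.

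No other group of the route held a gene that passed. Of 6 other JAK and STAT genes, 8 other SOCS and PIAS genes and 18 phosphatases and adaptors, 0 passed in limma, and 5 of these 32 had an unadjusted p under 0.05, against 19.6% of all tested probe sets. Their medians were 0.034, -0.12 and -0.077. The adaptor gene Gab1 had the smallest p among them, at 2075 and 2111 in WT, then 1477 and 1736 in KO replicates 1 and 2, a difference of -0.38 (limma adjusted p = 0.202). All 3 of its probe sets lay lower on both KO arrays, with differences from -0.41 to -0.35. Centred on epithelial markers that of the brightest was -0.0066. The hormone genes Prl and Gh were too dim to be tested, at 3.20 to 16.6 for Prl and 23.6 to 69.2 for Gh.

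**Figure D5:**
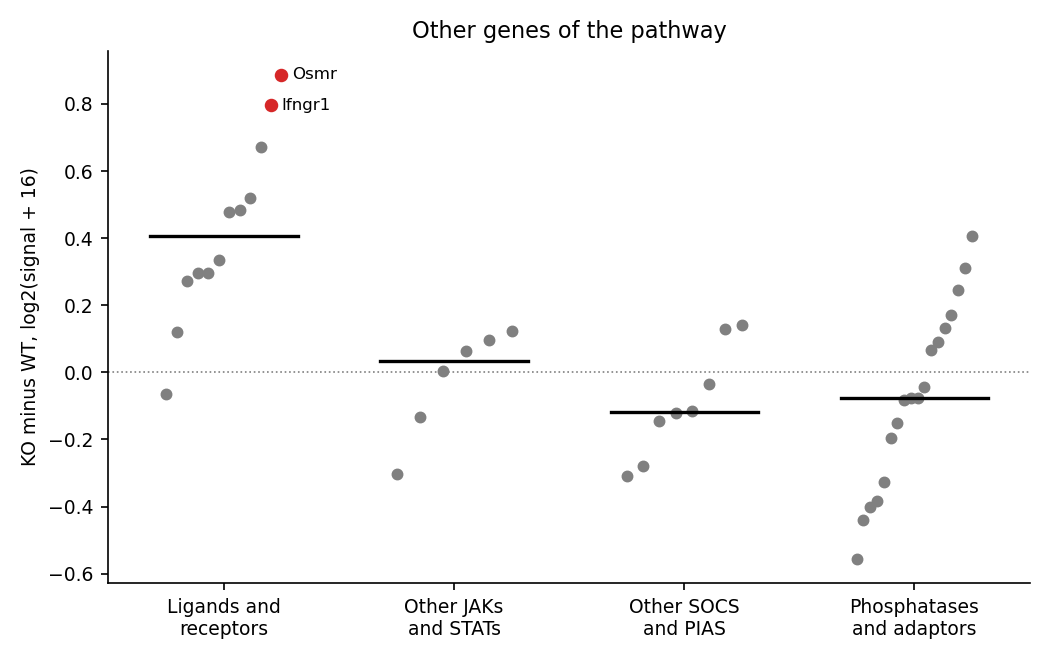
KO minus WT difference on the log2(signal + 16) scale for the 44 other tested genes of the pathway in 4 groups, with black bars at the medians and the genes past the threshold in red. The ligands and receptors sit highest, with a median of 0.41, and hold both genes that passed, Osmr and Ifngr1.

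Several genes known to depend on STAT5 in mammary epithelium fell. The low caseins of these KO arrays were known when the list was drawn up, so it is no independent evidence of direction. Of 21 listed genes 16 were tested, and Wap and Lalba were among those too dim. On both KO arrays 11 of the 16 lay lower, against 27.5% of all tested genes, and 2 higher, against 26.2%. The 2 higher were Bcl6 (0.59, limma adjusted p = 0.0987) and Bcl2l1 (0.23, adjusted p = 0.410). The list does not part genes that STAT5 activates from genes that it represses. Of the 16, 6 fell, 0 rose and 10 did not pass, against the same 2.57%, and the median was -1.01. These shares describe the list and are no test of it. Those that fell were Csn1s1, Csn2 and Csn1s2a (caseins), Gjb2 (a gap junction protein), Btn1a1 (a milk fat globule protein) and Elf5 (an alveolar transcription factor). Their differences ran from -7.67 for Csn1s1 to -1.10 for Elf5 (limma adjusted p = 8.99e-06 and 0.0324). Elf5 did not pass when either WT array was dropped, with no filter, with no trend or centred on epithelial markers. Its difference ran from -1.28 to -0.72 over all settings. On KO replicates 1 and 2 Csn1s1 gave 37.1 and 35.6, Csn2 122 and 83.3, and Csn1s2a 52.5 and 9.56. Each was the lower on KO replicate 2, but all of these signals lay under the limit for testing, 126, so their order says little. That limit was set on the mean over the arrays. These caseins and Btn1a1 reached it only through the WT arrays. Tnfsf11, the gene of RANK ligand, went against the Stat5 order, at 148 on KO replicate 1 and 592 on KO replicate 2, below 1849 and 1933 on the WT arrays (difference -2.59, adjusted p = 0.0614). It passed centred on epithelial markers (-2.22, limma adjusted p = 0.000407), whereas its SE in the main fit was 0.53. Under that centring the SEs of the tested core probe sets all lay from 0.45 to 0.48. A gene's own spread thus barely entered that pass. The difference of Tnfsf11 was -1.65 without KO replicate 1 and -3.54 without KO replicate 2. Each of these 2 fits kept 1 KO array and took its variance from the WT arrays alone. Wnt4, Id2 and Ccnd1 differed by -0.81, -1.02 and -0.99 (limma adjusted p = 0.0583, 0.0686 and 0.0792). They passed in no alternative that kept both KO arrays. Without KO replicate 2 their differences were -0.97, -1.35 and -1.28. All 3 were lower on KO replicate 1 than on KO replicate 2, as the epithelial markers were by median. The same order held for Elf5 (1146 and 1482) and Gjb2 (147 and 231). Btn1a1 (77.4 and 94.3) had it too, but under the limit for testing, so its order says as little as that of the caseins.

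The genes whose profile over the 4 arrays was closest to those of Stat5a, Stat5b, Cish, Ghr and Socs2 were found by the root mean square distance of centred log2 values. For Stat5a these were Cspg5, Gm13889 and Olfm1 (distances 0.046, 0.078 and 0.089), and 40 of 11359 other tested genes came within 0.2. For Stat5b they were Hhat, Coro1a and 6820431F20Rik (0.041, 0.050 and 0.064), with 151 genes within 0.2. Cish lay nearest to Lgals3, Ank and B4galt7 (0.068, 0.073 and 0.075), which share its high WT replicate 1, with 111 genes within 0.2. The profiles of Ghr and Socs2 varied so little that 2431 and 5696 genes came within 0.2. The nearest were Rab3il1, Pknox2 and Fer for Ghr and Zfp942, Klf3 and Rtl6 for Socs2. With 4 arrays such likeness is a description.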

How the data were processed

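TRIzol-extracted total RNA was biotin-labelled and hybridised to Affymetrix arrays, per the labels. The authors deposited linear intensities, 1 per probe set, and their processing notes name MAS5. Its version and settings are not given in the sources used here. They carry a common scaling per array, as read from the values. Symbols came from the platform annotation. All 20 probe sets kept their symbol when checked through Entrez identifiers.

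Signals were taken as log2(signal + 16), which understates changes of dim genes. Of 45037 non-control probe sets, the 22519 with a mean at or above the median were tested. Genotypes were compared with limma 3.58.1 under R 4.3.3, using lmFit and eBayes with a variance trend. P-values were adjusted by Benjamini and Hochberg's method over every tested probe set, with a threshold of 0.05. Replicate numbers pair nothing. Exact permutation of 2 against 2 arrays cannot go below p = 0.333 two-sided. In simulated data of 22519 probe sets for this comparison, 38 of 50 changes of 1 on the log2 scale were recovered, and 48 of 50 changes of 2. The simulated noise was normal, with variances taken from the fit itself, so these shares do not measure recovery on the real arrays. The number of arrays limits the precision.

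A gene in a list was represented by its brightest probe set. Named were all core genes, list genes past the threshold, the 4 others of each list (pathway, STAT5 targets) with the smallest p, and the 3 nearest profiles. The genes and lists were chosen with earlier results of these data known.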

Additional observations from a re-analysis of the deposited data

How the results depend on the processing

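No paired analysis was possible because the replicate numbers follow the order of deposit. Of 206 values of single probe sets of the core genes under alternatives, 188 kept direction and side of the threshold, 4 passed (Stat5a and Stat5b without KO replicate 1) and 14 changed sign, none of which passed. Left-out arrays gave 0 to 4 core probe sets, 0 to 1 other pathway genes and 67 to 1021 of all tested probe sets past the threshold, against 0, 2 and 450 with all arrays. All tested probe sets gave 212 centred on epithelial markers (173 higher, 39 lower, against 215 and 235), 38 with no filter, 182 with the 75th percentile filter and 205 with no trend. Centring on the median gave 487 (304 higher, 183 lower). Other pathway genes gave 1 after quantile normalization or the 75th percentile filter. They gave 0 centred on epithelial markers, with no filter, with no trend or when probe sets of a gene were averaged. Centring on epithelial markers moved the median of all tested probe sets from -0.025 to 0.35, and turned Cish 1448724_at to 0.021, Socs2 1446085_at to 0.021, Socs3 1416576_at to 0.33 and Socs3 1455899_x_at to 0.13. Socs3 1416576_at was 0.037 centred on the median. With an array left out, Ghr 1417962_s_at ran from -0.18 to 0.31, Ghr 1451871_a_at from -0.15 to 0.43, Cish 1448724_at from -0.77 to 0.063 and Socs2 1446085_at from -0.51 to 0.051. For Socs3, 1416576_at ran from -0.17 to 0.085, 1455899_x_at from -0.57 to 0.075 and 1456212_x_at from -0.0071 to 0.32. The cause was not tested. Detection calls were not used here, so dim signals could not be placed against background.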
